A study of Mus musculus with 6 samples.

Results

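The transcription factors Pax6, Lhx2, Rax, Sox2, Six3, Six6, Prox1, Isl1 and Meis2 were taken by gene symbol from the expression tables of mouse retina, as factors of the embryonic eye field or of inner retinal cells that stay expressed in the mature organ. All 9 had a row, among 15465 genes in all. The tissue was isolated retina of wild-type C57BL6/J mice with no treatment, and its age is not given in the labels. Each of 3 biological replicates was a library from a pool of 5 mice, sequenced as 2 technical replicates that share 1 table, so n was 3 throughout. The titles of the samples set this grouping and the source labels number the samples otherwise, so each SD and p-value rests on the titles. Only wild-type retina was analysed here, so the results are levels and their spread between pools.

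These genes encode DNA-binding proteins that act in sequence as the eye forms. Rax, Pax6, Six3, Six6 and Lhx2 mark the eye field, the patch of anterior neural plate from which both retinas grow, and loss of Rax or Pax6 in the mouse leaves no eye. In the mature mouse retina each of them is kept in a few cell classes. Rax, Lhx2 and Sox2 are known from Müller glia, the radial support cells, and Rax also from photoreceptors. Pax6 is known from amacrine, horizontal and ganglion cells, Six3 and Six6 from amacrine and ganglion cells, and Meis2 from amacrine cells that use GABA. Prox1 marks horizontal cells and AII amacrine cells, and Isl1 marks ON bipolar cells, cholinergic amacrine cells and ganglion cells. In whole retina, fewer cells of a class and less RNA per cell cannot be told apart.

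Several of the factors have close paralogues, and their coding sequences show how far reads could separate them. Stretches of 120 coding bases are printed for the 3 sets in which the level of a factor is later set beside that of a near copy. They were read from the GENCODE M21 transcripts (build GRCm38, while the deposited tables were made on mm9). Each stretch of a factor was chosen as the best gapless match within 1 exon to the first paralogue printed below it. Sox21 and Meis1 were then matched to that same stretch, so closer matches to them may lie elsewhere. The longest identical run of Meis2 and Meis1, 23 bases, is not within the printed stretch. Capitals mark the bases at which a paralogue differs from the factor above it. The Six3 stretch lies at chr17:85621825-85621944 on the plus strand, and the Six6 stretch at chr12:72940404-72940523 on the plus strand, with 16 differing bases.
Six3: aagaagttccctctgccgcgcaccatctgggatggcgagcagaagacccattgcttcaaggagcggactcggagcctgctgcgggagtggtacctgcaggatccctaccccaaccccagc
Six6: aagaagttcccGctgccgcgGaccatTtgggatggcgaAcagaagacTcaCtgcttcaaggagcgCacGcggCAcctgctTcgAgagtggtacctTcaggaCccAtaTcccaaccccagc
The Sox2 stretch, from its DNA-binding HMG box, lies at chr3:34650539-34650658 on the plus strand. That of Sox1 lies at chr8:12396508-12396627 on the plus strand, with 10 differing bases, and that of Sox21 at chr14:118235498-118235617 on the minus strand, with 9.
Sox2: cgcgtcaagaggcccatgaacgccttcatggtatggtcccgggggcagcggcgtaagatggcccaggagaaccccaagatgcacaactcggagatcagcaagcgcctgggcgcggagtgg
Sox1: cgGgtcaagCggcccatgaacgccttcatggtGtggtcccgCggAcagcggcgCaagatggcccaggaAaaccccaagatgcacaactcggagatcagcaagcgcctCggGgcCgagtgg
Sox21: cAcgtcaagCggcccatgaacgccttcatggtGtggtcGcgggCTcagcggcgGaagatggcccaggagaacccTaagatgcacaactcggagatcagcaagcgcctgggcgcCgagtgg
The Meis2 stretch lies at chr2:116058661-116058780 on the minus strand. That of Meis3 lies at chr7:16178951-16179070 on the plus strand, with 32 differing bases, and that of Meis1 at chr11:19011269-19011388 on the minus strand, with 25.
Meis2: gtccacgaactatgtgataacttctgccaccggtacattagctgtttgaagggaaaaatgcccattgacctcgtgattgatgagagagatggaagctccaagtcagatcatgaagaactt
Meis3: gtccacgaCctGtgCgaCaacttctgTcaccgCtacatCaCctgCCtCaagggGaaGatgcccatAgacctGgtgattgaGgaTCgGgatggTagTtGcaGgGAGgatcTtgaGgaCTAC
Meis1: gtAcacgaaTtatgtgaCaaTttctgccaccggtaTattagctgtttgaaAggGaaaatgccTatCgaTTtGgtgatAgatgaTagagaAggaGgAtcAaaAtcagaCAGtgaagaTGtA
Over 19 pairs of a factor and a paralogue with a row, the longest run of identical coding bases was between 12 and 38 bases, with 38 for Sox2 against both Sox1 and Sox21. Such runs are short, but neither read length nor the handling of reads with several matches was given in the labels.

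Rax had the highest RPKM of the 9 factors, a lead that shrinks when transcript length is taken out of the values, as given with the shares of reads. The deposited values were taken as RPKM, read counts scaled to transcript length and to library size, which is inferred from the values. Rax had 115.24, 122.45 and 88.75 RPKM in replicates 1, 2 and 3. Its mean of 109 ± 17.7 RPKM (SD, n = 3) was 17.4 times the median gene, which stood at 6.26 RPKM, and ranked 290 of 15465 genes. Replicate 3 was the lowest of the 3 pools for Rax. Rax is also an older name of Prkra, an activator of the kinase PKR, which had its own row at 11.8 ± 1.16 RPKM, so the values were not those of that row.

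Pax6, the paired-box factor of amacrine and ganglion cells, came second with 54.37, 60.62 and 47.87 RPKM in replicates 1, 2 and 3. Its mean was 54.3 ± 6.38 RPKM. Rax exceeded Pax6 in each pool, by 0.99 ± 0.10 on the log2 scale (a factor of 1.99). Folds between genes were taken within a pool on the scale of log2(RPKM + 0.1). With 3 pools an exact sign-flip test cannot give a p under 0.25, so these ratios are given with their SD and no p.

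Six3, Isl1, Lhx2 and Prox1 lay close together. Six3 had 27.31, 27.86 and 23.83 RPKM in replicates 1, 2 and 3. Isl1, the LIM homeobox factor of ON bipolar and ganglion cells, had 21.19, 26.21 and 21.15 RPKM. Replicate 2 was the highest for both, and their ranges overlapped across pools although Six3 was the higher in each pool. Lhx2, the LIM homeobox factor of Müller glia, had 24.04, 23.79 and 18.95 RPKM. Prox1, the mouse homologue of fly prospero, had 22.17, 19.55 and 22.26 RPKM and was the one factor of the 9 highest in replicate 3 as deposited.

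The lowest of the set were Meis2, Six6 and Sox2. Meis2, a homeobox factor of the TALE class, had 14.54, 16.82 and 14.02 RPKM in replicates 1, 2 and 3. Six6, the paralogue of Six3, had 12.79, 15.03 and 12.82 RPKM. Both were highest in replicate 2, and replicates 1 and 3 lay close together. Sox2, the HMG-box factor of Müller glia and some amacrine cells, had 10.75, 8.3 and 8.66 RPKM, with replicate 1 above the others.

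**Figure D1:**
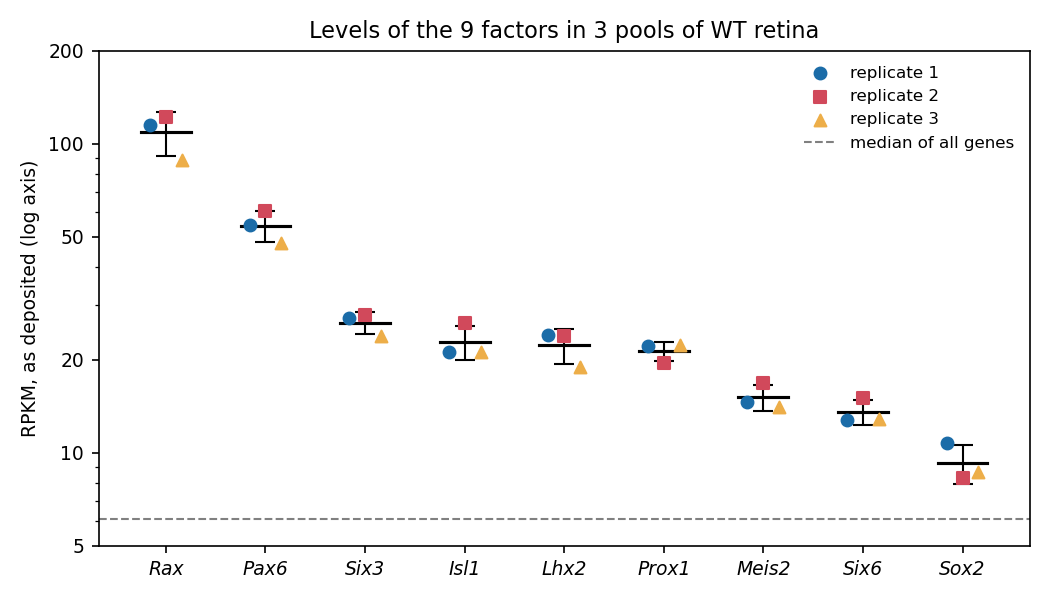
RPKM as deposited (log axis) of each factor in the 3 pools, with the mean (horizontal line) and SD (error bar, n = 3); the dashed line is the median of all genes. Rax stands at 109 RPKM and Sox2 at 9.24 RPKM, and every point lies above the dashed line.

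All 9 factors had 1 RPKM or more in every pool, as did 11978 of all 15465 genes. All 9 also passed the filter of a mean of 1 RPKM used for the tests, as did 12562 genes. Their means spanned 11.8-fold, and 6 of the 9 lay above the upper quartile of all genes, 16.2 RPKM. Meis2, Six6 and Sox2 did not, with means of 15.1 ± 1.49, 13.5 ± 1.28 and 9.24 ± 1.32 RPKM. The median over the 9 was 22.4 ± 1.33 RPKM, against 6.09 ± 0.396 RPKM for the median over all genes (SD over pools, n = 3). Rax alone made up 36.9% ± 2.19 of their summed RPKM.

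Neighbours in this order were described as apart, with no test, where the ratio had 1 sign in all 3 pools and exceeded its SD. That held for 6 of 8 neighbouring pairs. Isl1 and Lhx2 differed by 0.04 ± 0.19 on the log2 scale and Lhx2 and Prox1 by 0.06 ± 0.26, both less than the spread between pools. Isl1 and Prox1, which are not neighbours, were not apart either (0.09 ± 0.28). Six3 exceeded Isl1 by 0.21 ± 0.14 and Meis2 exceeded Six6 by 0.16 ± 0.03, the narrowest gaps that passed the rule. Larger steps separated Pax6 from Six3 (1.04 ± 0.07), Prox1 from Meis2 (0.49 ± 0.24) and Six6 from Sox2 (0.55 ± 0.30).

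RPKM divides by a transcript length, and both the order and the lead of Rax differ without that division. The product of RPKM and length follows reads, which rise with length at an equal number of transcripts. The lengths were GENCODE M21 medians, as those behind the deposited values are not given. Multiplied by the median transcript length of each gene, 7.91 kb for Prox1 and 1.67 kb for Rax, the product of RPKM and kb was 169 ± 12.2 for Prox1, against 182 ± 29.7 for Rax and 154 ± 18.1 for Pax6. Prox1 had 175, 155 and 176 in replicates 1, 2 and 3, and Rax had 193, 205 and 148. Prox1 was thus second by mean but the highest factor in replicate 3, and in replicate 2 it was under Pax6 (172) as well as Rax. The excess of Rax over Pax6 was 0.23 ± 0.10 on the log2 scale by this product, against 0.99 by RPKM. Six6 (54.3 ± 5.15) passed Lhx2 (50.5 ± 6.51) and Meis2 (45.9 ± 4.52), and Sox2 stayed last with 19.0 ± 2.72.

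The spread of the 9 factors between pools was next set against that of other genes of their level. After scaling of the pools to each other, the variance of each gene over replicates was compared with the prior variance at its mean in limma's robust fit over 12562 genes. Of the 9 factors 0 were called at an adjusted p under 0.05, where 5.42% of all genes tested were called, and 0 had an unadjusted p under 0.05, as 1048 of all genes did. The non-robust prior called 0 of all 12562 genes, so its 0 of 9 says nothing about the factors. Sox2 came nearest to a call, with an adjusted p of 0.993 in limma, and the adjusted p-values of the 9 lay between 0.993 and 0.999. A p that misses the threshold does not show that the pools were alike, and it measures only the spread between these pools.

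After scaling, Meis2 varied least among the 9 factors. Scaled to each other, the 3 pools had 14.8, 15.4 and 15.0 RPKM of Meis2, an SD of 0.03 on the log2 scale. Six6 (SD 0.05), Pax6 (0.07), Six3 (0.07) and Isl1 (0.08) followed, and Lhx2 had 0.14. These 6 factors were below the median SD of all genes tested, 0.15. Rax (0.16), Prox1 (0.22) and Sox2 (0.26) were above it. This order depends on the scaling. Without it, Prox1 had the lowest SD of the 9 (0.11), and Meis2 had 0.14. Sox2 spanned 1.43-fold between replicates 1 and 2, with 10.9, 7.61 and 9.28 scaled RPKM in replicates 1, 2 and 3. Its symbol is also the start of another symbol, Sox21, and 626 of the 681 genes called as varying had a symbol that extends or begins another in this way, as did 2088 of the 12562 tested. The Sox21 row was at 0 or near it, with 0, 0 and 0.01 RPKM. Whether the Sox2 row was touched was not tested. In a separate fit without all genes of such symbols, 8 of the 9 factors were left and 0 were called, where 0.945% of 10474 genes were.

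**Figure D2:**
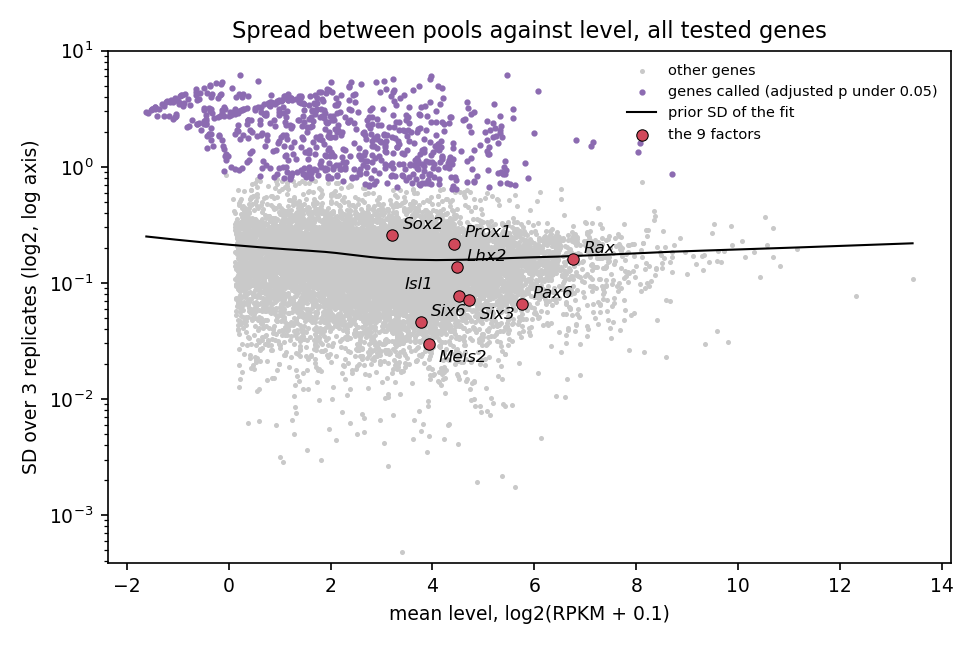
SD over 3 replicates on the log2 scale (log axis) against the mean level, log2(RPKM + 0.1), for 12562 genes; the line is the prior SD of the limma fit, purple points are the 681 genes called, and red points are the 9 factors. After scaling, the 9 factors lie between an SD of 0.03 (Meis2) and 0.26 (Sox2), all below the called genes of their level.

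The factors did not share 1 order of pools. After scaling, 4 were highest in replicate 1, 4 in replicate 2 and 1 in replicate 3. Rax and Lhx2 were highest in replicate 1 and lowest in replicate 3, an order that 16.7% of all genes past the filter had. Six3 was highest in replicate 1, with replicates 2 and 3 level at 25.5 scaled RPKM. Isl1, Six6 and Meis2 were highest in replicate 2 and lowest in replicate 1. In log2 terms the lowest pool of Rax (replicate 3) lay 0.18 under its mean, and that of Lhx2 lay 0.12 under.

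**Figure D3:**
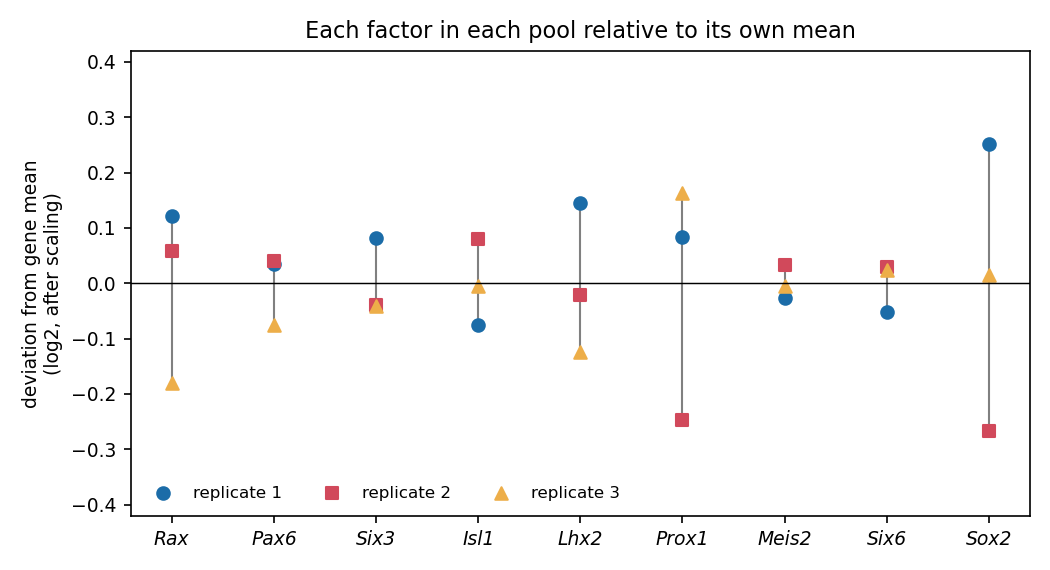
Deviation of each pool from the mean of the gene, on the log2 scale after scaling, with a grey line from the lowest to the highest pool. Prox1 and Sox2 have their lowest point in replicate 2 (-0.25 and -0.27), while Rax and Lhx2 have it in replicate 3 (-0.18 and -0.12).

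Some markers of tissues next to the retina varied between the same pools. Of 9 lens markers 5 were called in limma, where 5.42% of all genes tested were called. So were 3 of the 4 cornea and conjunctiva markers past the filter and 2 of 3 skeletal muscle markers. Prox1, which lens fibre cells also express, had 22.6, 17.9 and 23.8 scaled RPKM in replicates 1, 2 and 3. The same order, replicate 3 then 1 then 2, was found for 7 of 9 lens markers (Cryaa and Foxe3 were the others) and for 2513 of the 12562 genes past the filter. The summed lens markers had 3235, 2408 and 3455 RPKM, none was at 0, and Crygc, a gamma-crystallin of lens fibres, had 250.19, 115.12 and 634.95 RPKM. Prox1 is also known from horizontal cells. Of the 3 other horizontal markers with a row, Lhx1 and Onecut1 had that order after scaling, while Calb1, with 10.94, 15.79 and 11.64 RPKM as deposited, was highest in replicate 2, where Prox1 was lowest. The SD of Prox1 on the log2 scale was 0.29 without replicate 1, 0.05 without replicate 2 and 0.23 without replicate 3. Replicate 2 was its lowest pool, so a smaller SD without it follows from the values themselves. The part of lens material in the Prox1 values was not tested, nor was that of lens, corneal or muscle material in the other factors.

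The scaled order of Rax and Lhx2 was that of 6 of 8 markers of pigment cells, with Rpe65 and Mitf as the others. It was also that of 3 of 4 vascular markers, with Kdr as the other, and of 16.7% of all genes past the filter. The summed pigment markers had 476, 455 and 262 RPKM as deposited in replicates 1, 2 and 3. The summed vascular markers had 61.9, 62.74 and 40.49 RPKM, and none of either list was at 0. In limma 3 of the 8 pigment markers were called (Pmel, Mlana and Rpe65), against 5.42% of all genes tested. Of the 4 vascular markers 1 was called, Acta2, with 21.3, 20.76 and 6.3 RPKM. Of the 10 Müller glia markers, 6 were lowest in replicate 3 after scaling, as were Rax, Lhx2 and 36.6% of all genes past the filter. As deposited, where replicate 3 was also the lowest in the sum over all genes, the sum of the 10 was 2358, 2504 and 1800 RPKM. The other 4 of the 10 (Glul, Slc1a3, Aqp4 and Kcnj10) were lowest in replicate 2 after scaling, as were Sox2 and 34.0% of all genes past the filter. Glul, the glutamine synthetase of Müller glia, had 398.45, 254.92 and 334.84 RPKM as deposited. Slc1a3 and Kcnj10 were highest in replicate 2 as deposited. The part of these cells in the values of the factors was not tested.

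Within their gene families the factors ranged from nearly the whole family to a near-equal share. Shares are percent of the summed RPKM of family members with a row. Pax6 took 99.5% ± 0.0493 of the Pax family, in which only 3 of 9 listed genes had a row, with Pax8 at 0.3 ± 0.052 RPKM and Pax4 listed at 0. Prox1 took 90.8% ± 0.477 beside Prox2, and Sox2 took 77.7% ± 1.51 beside Sox1, its partner in the SoxB1 group, whose symbol is also the start of others.

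Among the sine oculis homologues, Six3 took 60.0% ± 0.799 and Six6 30.9% ± 2.07. Six3 exceeded Six6 in 3 of 3 pools, by 0.95 ± 0.12 on the log2 scale. Six5 followed with 7.02% ± 1.16, and Six2, which acts in the kidney, had 0.62 ± 0.108 RPKM.

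The LIM homeobox genes were shared out more evenly. Isl1 took 32.2% ± 3.04 and Lhx2 31.2% ± 1.57, ahead of the bipolar and photoreceptor factor Lhx4 (13.5% ± 2.9) and the cone bipolar factor Lhx3 (11.6% ± 0.736). Isl1 exceeded Isl2, a ganglion cell factor, by 2.21 ± 0.18 on the log2 scale. Lhx2 exceeded Lhx9, its closest paralogue, by 4.42 ± 0.20 on the same scale, with Lhx9 at 0.94 ± 0.0173 RPKM.

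By RPKM the Meis genes were nearly level, and Meis2 did not lead. Beside the values of Meis2 given above, Meis3 had 17.23, 18.69 and 13.82 RPKM in replicates 1, 2 and 3, and Meis1 had 12.43, 14.57 and 12.71 RPKM. Shares were 33.7% ± 0.844 for Meis2, 36.8% ± 2.49 for Meis3 and 29.5% ± 1.65 for Meis1. Meis2 differed from Meis3 by -0.12 ± 0.13 on the log2 scale, less than the spread between pools, and exceeded Meis1 by 0.19 ± 0.04 in 3 of 3 pools.

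**Figure D4:**
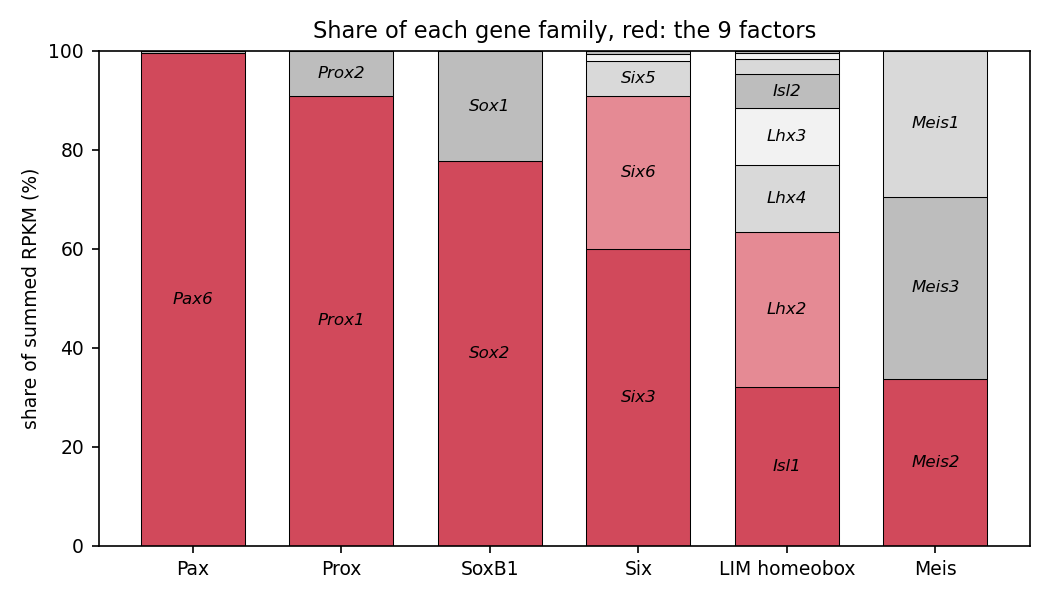
Mean share of each gene in the summed RPKM of its family (percent, n = 3 pools), with the factors of the set in red and other family members in grey. Pax6 fills 99.5% of its bar, while Meis2 takes 33.7% beside Meis3 and Meis1.

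Some of the factors share their locus with other transcripts. Whether the counting used the strand is not given, so reads from a gene and an overlapping transcript cannot be told apart. Six3os1, which starts next to Six3 on the other strand, had 10.14, 10.16 and 9.67 RPKM in replicates 1, 2 and 3, and Six3 exceeded it by 1.39 ± 0.08 on the log2 scale. Sox2ot, whose gene contains Sox2 in an intron, had 2.72 ± 0.179 RPKM and lay 1.72 ± 0.29 under Sox2. Pax6os1 had 2.23 ± 0.44 RPKM, the Six6 antisense gene 4930447C04Rik 3.18 ± 0.606 RPKM, and Elp4, the neighbour of Pax6, 3.09 ± 0.41 RPKM. Of these 5, Six3os1 was the highest relative to its partner.

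The factors were then placed among other factors of the same cell classes. The median over the 9 was 22.4 RPKM as above, against 7.73 ± 0.553 RPKM for 15 other eye field and progenitor factors, 7.28 ± 1.23 for 14 Müller glia factors, 5.96 ± 0.328 for 14 amacrine and horizontal factors, 7.24 ± 0.541 for 15 bipolar factors and 3.54 ± 0.641 for 14 ganglion cell factors (SD over pools, n = 3). The medians cover genes with a row, and 9 of 23 listed amacrine and horizontal factors had none, among them Ptf1a, Tfap2a and Tfap2b. Since the 9 were picked as expressed factors, the gap says nothing on its own.

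Among Müller glia factors the leaders were Nfic (38.4 ± 2.94 RPKM), a nuclear factor I gene, Id3 (26.3 ± 3.59), an inhibitor of helix-loop-helix factors, and Hes5 (19.6 ± 2.79), a Notch effector. Rax exceeded Hes1, another Notch effector, by 2.80 ± 0.08 on the log2 scale and Sox9, a marker of Müller glia, by 4.43 ± 0.20. Lhx2 exceeded Sox9 by 2.15 ± 0.16 and Sox2 exceeded it by 0.89 ± 0.21, each in 3 of 3 pools. Sox9 itself had 4.91 ± 0.156 RPKM.

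Bipolar and progenitor factors included Otx2 (80.2 ± 6.54 RPKM), shared by bipolar cells and photoreceptors, Prdm8 (38.3 ± 4.8), Hes6 (28.5 ± 5.7) and Bhlhe23 (27.5 ± 4.31), a rod bipolar factor. Rax exceeded Otx2 by 0.43 ± 0.13 on the log2 scale in 3 of 3 pools, while Pax6 lay under Otx2 in each pool (-0.56 ± 0.06).

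Amacrine and horizontal factors were lower. They were led by Neurod4 (20.7 ± 2.85 RPKM), Lmo4 (20.1 ± 1.34) and Meis1 (13.2 ± 1.16). Pax6 exceeded Barhl2, an amacrine and ganglion cell factor, by 2.40 ± 0.09 on the log2 scale. Prox1 exceeded the horizontal cell factors Lhx1 (by 3.26 ± 0.12) and Onecut1 (by 3.53 ± 0.09), which had 2.13 ± 0.0458 and 1.76 ± 0.248 RPKM. Ganglion cell factors were led by Sox12 (13.3 ± 2.24 RPKM), the RNA-binding marker Rbpms (12 ± 1.0) and Ebf1 (6.45 ± 0.114). The symbols of Sox12 and Rbpms are of the kind described for Sox2. Isl1 exceeded the ganglion cell factor Pou4f1 by 2.03 ± 0.30.

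By their median, photoreceptor factors stood above most of the set. The 9 and this list were both chosen with earlier results of these data known. Relative to the median of 13 photoreceptor factors (80.2 ± 6.54 RPKM), the median of the 9 was -1.84 ± 0.05 on the log2 scale in 3 of 3 pools, a factor of 3.57 below. By RPKM Rax alone of the 9 lay above that median, which is the value of Otx2 in each pool, so its excess is the one given over Otx2. Multiplied by transcript length, Rax differed from the list median by 0.05 ± 0.40 and Prox1 by -0.05 ± 0.17, both less than the spread between pools. Nrl (767 ± 76.6 RPKM), Nr2e3 (342 ± 38.3), Crx (304 ± 21.8), Neurod1 (131 ± 11.5), Mef2d (116 ± 6.15) and Esrrb (112.5 ± 7.19) were above Rax in mean, and Otx2 and Samd7 (36 ± 3.89) were the other 2 above the median of the 9. Rorb (19.8 ± 2.45 RPKM), Mef2c (11.1 ± 1.15), Thrb (8.71 ± 0.956), Rxrg (4.72 ± 0.855) and Prdm1 were below the median of the 9. Prdm1, with 0.01, 0 and 0 RPKM, has a symbol of the kind described for Sox2.

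**Figure D5:**
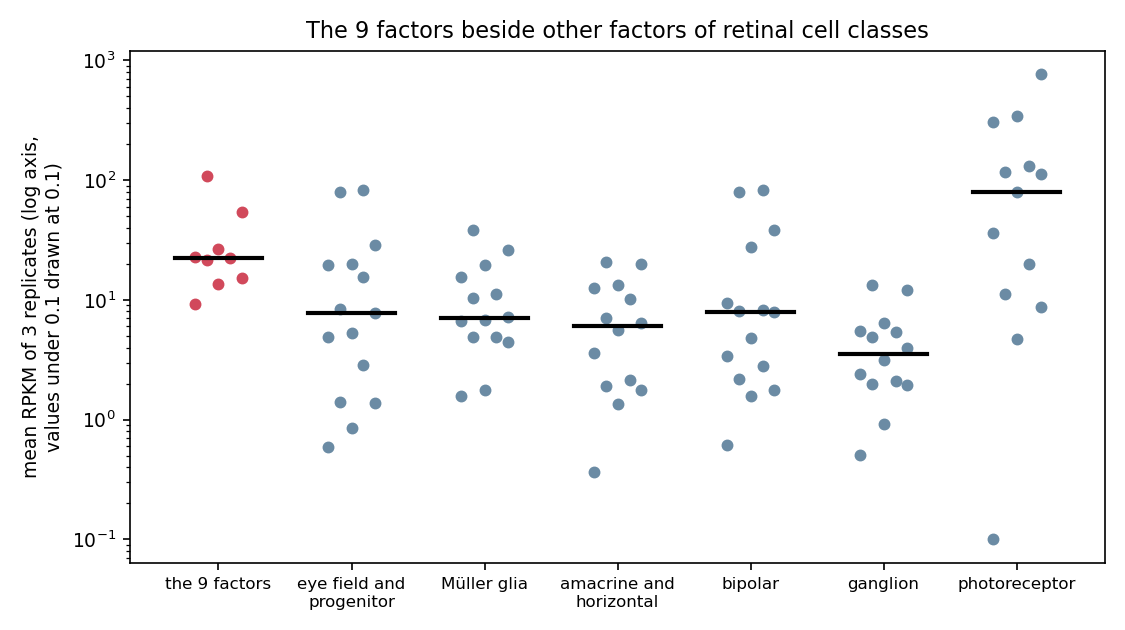
Mean RPKM over 3 pools (log axis) of each gene with a row in the set of 9 and in 6 lists of factors, with the median of the gene means as a bar and values under 0.1 drawn at 0.1. The photoreceptor list reaches 767 RPKM (Nrl), the 9 factors reach 109 RPKM (Rax), and the ganglion cell list stays at 13.3 RPKM or less.

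Proteins that work with these factors were measured as well. LIM homeobox factors such as Lhx2 and Isl1 act through Ldb1 and the single-stranded DNA-binding proteins that join it. Ssbp4 had 110 ± 13.3 RPKM, Lmo1, which competes for the same partner, 37.6 ± 8.16, and Ssbp3 25.3 ± 2.92. Ldb1 had 42.37, 22.82 and 29.08 RPKM in replicates 1, 2 and 3, and was not called (limma, adjusted p = 0.144). Of 10 listed LIM cofactors 9 had 1 RPKM or more in every pool, with Lmo3 below that, where 11978 of all 15465 genes had it.

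Meis proteins pair with Pbx proteins on DNA. Pbx3 (22.7 ± 1.38 RPKM) and Pbx2 (18.1 ± 1.95) led the 6 listed TALE partners and lay above Meis2 in mean. All 6 had 1 RPKM or more in every pool, as did 11978 of all 15465 genes. Six3 and Six6 recruit Groucho corepressors. The short Groucho protein Aes had 345.73, 329.82 and 222.61 RPKM, lowest in replicate 3, and Tle2 (23.2 ± 3.52) and Tle4 (12 ± 0.487) led the long ones. Eya phosphatases, which act with some sine oculis homologues, were lower, with Eya3 at 7.44 ± 0.579 and Eya1 at 0.703 ± 0.119 RPKM.

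The genes closest to each factor over the 3 pools were found among 126 genes of the lists, by the distance between log2 values in the 3 pools. The nearest were Ssbp4 and Esrrb for Rax (0.14 and 0.24 on the log2 scale), Nfic and Prdm8 for Pax6 (0.89 and 0.91), and Ssbp3 and Bhlhe23 for Six3 (0.14 and 0.18). Lhx2 was nearest to Tle2 and Pbx3 (0.11 and 0.16), Isl1 to Pbx3 and Lhx2 (0.20 and 0.28), and Prox1 to Lmo4 and Pbx3 (0.26 and 0.29). Hes1 lay at 0.27 from Meis2, and Sox2 was nearest to Tle3 and Lhx4 (0.13 and 0.24). The closest of all was Meis1 to Six6 (0.06), followed for Six6 by Bhlhe22 (0.26). Such a distance includes the difference in mean level, and that of Pax6 to its nearest gene was the largest of the 9.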

How the data were processed

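RNA sequencing of wild-type mouse retina was deposited as 3 tables, 1 for each biological replicate, and both technical replicates of a replicate name the same table. The authors' values were taken as RPKM, since, multiplied by transcript length (kb), they added up to 739388, 779326 and 685616 in replicates 1, 2 and 3. No header or label names the unit, and FPKM would look the same. GSNAP, HTSeq and the build mm9 are named in the submitters' processing notes. No version, annotation or filter was given there. Read depth is unknown, so no interval that needs counts is given, and replication sets the precision. A total of 3 symbols stood on 2 rows with equal values and were kept once.

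For tests, values were scaled between replicates by trimmed means of their log ratios (30% of ratios and 5% of means trimmed at each end, factors 0.982, 1.09 and 0.934) and taken as log2(RPKM + 0.1), which understates differences of low genes. Genes averaging at least 1 RPKM entered limma 3.58.1 (R 4.3.3, statmod 1.5.0). The variance of each gene over replicates was tested against the robust trended prior by an F test. Benjamini-Hochberg adjustment ran over all genes, with a threshold of 0.05. The procedure was tested on simulated data. Ratios used values within a replicate. Digit-extended symbols are those that consist of another symbol of the files or RefSeq and a following digit with any ending, and those other symbols (2656 rows). Lengths are medians over GENCODE M21 transcripts linked to RefSeq (90.2% of genes).

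The members and the lists were chosen with earlier results of these data known. Named by rule were all 9 factors, the 3 highest genes of each list, list genes at or above the median of the 9, paralogues with 10% or more of a family, the 2 nearest genes and all overlapping partners. Some genes that fall under this rule are not reported here. Hes1, Sox9, Barhl2, Pou4f1, Onecut1, Lhx1, Lhx9, Isl2, Eya1 and other list genes of known role were added after their values had been seen. Alternatives were each replicate left out, a pseudocount of 1, no scaling, no filter, the non-robust prior, omission of digit-extended symbols, multiplication by length and the mean of a list.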

Additional observations from a re-analysis of the deposited data

How the results depend on the processing

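The median of the 9 factors, 4.49 on the scale of log2(RPKM + 0.1), was between 4.44 and 4.53 with a replicate left out, 4.54 with a pseudocount of 1 and 5.85 after multiplication by transcript length, which changes the unit. By that multiplication the median share of a factor in its family was 48.9% (47.0% before), the median relative to photoreceptor factors was -1.59 (-1.84 before), the log2 ratio of Rax to Pax6 was 0.23 (0.99 before), and the ratio of Meis2 to Six6 turned round to -0.24. The number of neighbouring pairs apart with the order by RPKM kept was 6, and between 5 and 7 under the alternatives. The 5 came from multiplication by length. There the ratios of Meis2 to Six6 (-0.24) and of Lhx2 to Prox1 (-1.74 ± 0.26) exceeded their SD but were negative, so they were not counted. The median over all genes of the factor and partner lists was 6.93 RPKM, 7.78 with only genes of a mean of 1 RPKM or more, and 31.5 by the mean of members. Genes varying between replicates numbered 681 in all. Leaving out replicate 1 gave 481, replicate 2 gave 302 and replicate 3 gave 444. They numbered 99 without digit-extended symbols and 0 with the non-robust prior, where 707 had an unadjusted p under 0.05. Of the factors 0 were called under any of these settings. For none of these shifts was a cause tested. Read depth is unknown, so what low values can resolve is unknown too. No paired analysis was possible because there was 1 group.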

Other observations

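Sequence families with a homeodomain held 101 genes with a row, a set drawn up from symbols after the data were seen. Rax was second among them in every pool, behind Crx, the photoreceptor factor, and Pax6 ranked 5 in every pool. The 8 factors with a homeodomain lay within the first 20 by mean and took 23.0% ± 1.29 of the summed RPKM of the 101 (SD, n = 3), of which 67 had 1 RPKM or more in every pool. Other homeobox genes of that height were Sebox (44.6 ± 6.75 RPKM), Adnp2 (39.4 ± 1.26), Vax2 (28.1 ± 4.57), a factor of the ventral retina, Hmx1 (27.5 ± 4.75), known from eye and ear development, and Pou6f1 (23.9 ± 1.34). Their median, without the 8 factors, was 2.40 RPKM.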
